A study of Mus musculus with 2 samples.

Results

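The genes described here are the 128 voltage-gated sodium, calcium and cation channel and potassium channel genes of the mouse, taken by symbol: every Scn, Cacna1, Cacna2d, Cacnb and Hcn subunit and every Kcn gene with a numbered family member. They are 128 of 43346 genes in the tables, and each of them is among the 21474 genes annotated as protein coding. Their RNA was measured in the midbrain of B6NCrl mouse embryos at embryonic day 10.5, with no treatment and no altered allele named. There is 1 group of 2 libraries, and both were made from 10 ng of RNA of whole midbrains, male and female pooled. Replicate 1 pooled 69 embryos and replicate 2 pooled 51, and the labels call them biological replicates. The total expected count, the estimated number of reads given to genes, was 47128426 in replicate 1 and 52189568 in replicate 2. Each library is an average over every cell of the dissected tissue, so fewer cells of a type and less RNA per cell cannot be told apart. With 1 library on each side, differences between the libraries carry no test and no replicate check. The intervals given with them cover counting error only.

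Voltage-gated channels open on a change of membrane potential: sodium and calcium channels pass current inward, and voltage-gated potassium channels repolarise the cell. Each sodium or calcium pore is 1 long protein, with beta or alpha2delta subunits that set its trafficking and gating, while a potassium pore is assembled from separate subunits. Inward rectifiers and K2P channels, which carry 2 pore domains in a subunit, set the resting potential of cells that do not fire as well as of cells that do. At this stage the midbrain is largely a neuroepithelium of dividing progenitors in which the first neurons have formed.

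Marker lists of cell types were read in both libraries. No list was of a brain region, so the label of midbrain was not checked. All 14 neuronal markers and all 10 progenitor markers reached at least 1 TPM in both libraries, TPM being a level scaled for transcript length and library size. Their summed levels were 1865 and 1179 TPM for neurons and 2787 and 2297 TPM for progenitors, in replicates 1 and 2. The dissections also held blood and vessels: 7 erythroid markers summed to 11370 and 13300 TPM, and 8 endothelial markers to 174.5 and 186.6 TPM. Head mesenchyme markers summed to 810.7 and 566.2 TPM, and muscle markers to 7.03 and 8.45 TPM, with Myod1 at 0.04 TPM and at 0.

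Channel genes were low as a group. Of the 128 genes, 44 reached 1 TPM in both libraries (34.4%), the level called detected here, against 58.1% of all protein-coding genes. A further 7 reached it in replicate 1 only, 1 in replicate 2 only (Kcna1) and 76 in neither. The median over the 128 genes was 0.615 and 0.455 TPM in replicates 1 and 2, and the median of their mean levels was 0.573 TPM, against 3.74 TPM over protein-coding genes. Only 4 genes (3.12%) averaged 10 TPM or more, a level that 39.5% of protein-coding genes reached. All 128 together summed to 311.8 TPM in replicate 1 and 228.5 TPM in replicate 2, and the 5 highest genes gave 35.0% of that. In reads they took 29329 of the counts of replicate 1 (0.0644%) and 22704 of those of replicate 2 (0.0450%). No read was assigned in either library to Kcna7, Kcna10, Kcng3, Kcnj1, Kcnk16 or Kcnk18, all named for that count. At 3 counts, the limit that a count of 0 allows, their levels would be 0.0301 to 0.131 TPM in replicate 1 and 0.0263 to 0.114 TPM in replicate 2. For Kcna10 the deposited upper credible bound of TPM lay above these ranges, at 0.408 and 0.354 TPM.

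**Figure D1:**
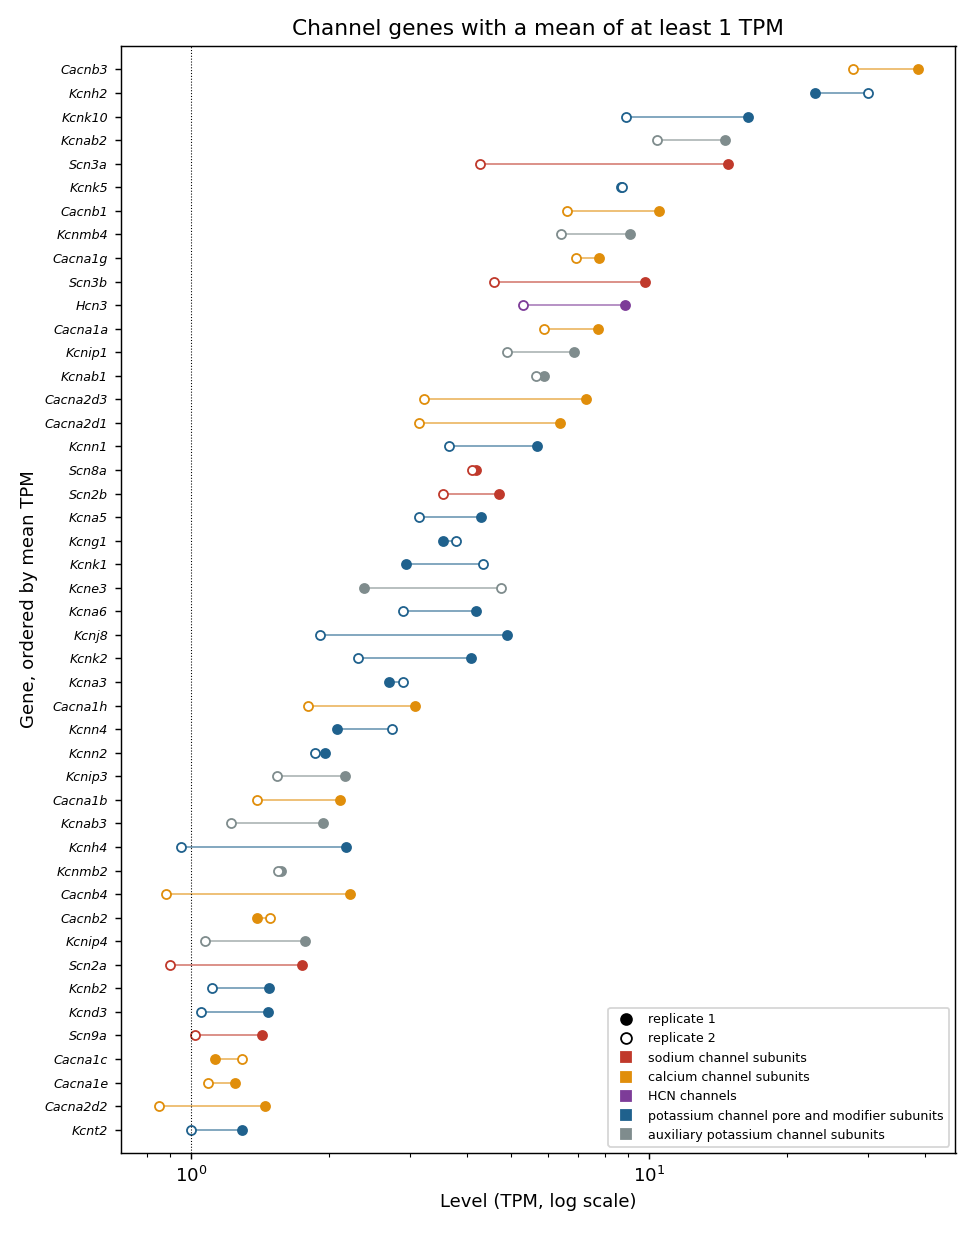
Levels of 46 of the 48 channel genes that averaged 1 TPM or more, on a log axis in TPM, with filled points for replicate 1, open points for replicate 2 and colours for the channel type. Cacnb3 and Kcnh2 stand above the others, and most genes have the open point to the left of the filled one.

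The calcium channel beta subunit Cacnb3 was the highest channel gene, with 38.54 TPM in replicate 1 and 27.83 TPM in replicate 2. It lies at chr15:98630840-98644529 on the plus strand (GRCm38) and encodes an intracellular subunit that brings high-voltage-activated pores to the membrane. Kcnh2, the pore of the rapid delayed rectifier known from cardiac repolarisation, followed with 23.02 and 30.08 TPM (chr5:24319589-24351604, minus strand). Cacnb3 was the higher of the pair in replicate 1 and Kcnh2 in replicate 2, so their order was not fixed by these libraries. Kcnk10, a K2P channel opened by stretch and lipids (TREK-2), had 16.45 and 8.90 TPM (chr12:98429437-98578310, minus strand). Kcnab2, a cytoplasmic beta subunit of Kv channels, had 14.63 and 10.38 TPM (chr4:152390742-152477871, minus strand). The gap below Kcnh2 was the only one among the 15 neighbouring pairs of the 16 highest genes in which the ranges of the 2 libraries lay apart. In 3 of the 15 pairs the order was at least the same in both libraries.

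Promoter sequences of 93 of the 128 genes were matched in RefSeq (GRCm38.p6), each running from 250 bases before to 50 bases after an annotated start, and 35 genes had no entry. Of the sequences below, 3 are promoter sequences of Cacnb3, Kcnk10 and Kcnj6, with each CG dinucleotide in capitals. All read 5′ to 3′ in the direction of the gene. The first surrounds a start 48 nt from that of Cacnb3-202, the transcript with 87.77% and 88.78% of the gene's TPM, and lies at chr15:98632078-98632377 (plus strand). The second is that of Kcnk10 (chr12:98575078-98575377, minus strand). The third belongs to Kcnj6 (GIRK2), a G-protein-gated rectifier that marks dopamine neurons of the adult midbrain and stood here at 0.06 and 0.02 TPM, from 3 and 2 reads (chr16:94997647-94997946, minus strand). Kcnj6 was chosen for printing after its values were seen.
Cacnb3: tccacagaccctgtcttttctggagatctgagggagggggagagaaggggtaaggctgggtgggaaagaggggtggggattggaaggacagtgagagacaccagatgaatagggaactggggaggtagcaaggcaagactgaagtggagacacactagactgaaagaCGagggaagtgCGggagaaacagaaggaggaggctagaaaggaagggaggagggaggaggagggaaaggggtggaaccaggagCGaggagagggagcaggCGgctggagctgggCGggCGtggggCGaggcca
Kcnk10: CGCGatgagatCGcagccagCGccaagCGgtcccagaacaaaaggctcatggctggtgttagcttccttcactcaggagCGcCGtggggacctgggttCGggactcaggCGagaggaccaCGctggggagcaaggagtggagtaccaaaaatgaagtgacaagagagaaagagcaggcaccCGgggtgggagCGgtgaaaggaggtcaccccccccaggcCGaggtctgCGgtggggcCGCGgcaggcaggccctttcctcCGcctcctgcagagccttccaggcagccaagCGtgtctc
Kcnj6: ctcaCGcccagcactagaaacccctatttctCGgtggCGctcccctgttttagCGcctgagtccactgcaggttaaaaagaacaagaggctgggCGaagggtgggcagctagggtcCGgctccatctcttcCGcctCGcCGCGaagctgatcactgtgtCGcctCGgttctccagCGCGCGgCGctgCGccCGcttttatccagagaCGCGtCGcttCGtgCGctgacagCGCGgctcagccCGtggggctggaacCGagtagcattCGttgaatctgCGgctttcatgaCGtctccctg
The highest channel gene has 7 CG in this window, Kcnk10 has 18 and the nearly silent Kcnj6 has 30. The ratio of observed to expected CG was 0.392, 0.587 and 1.04 in that order. Each gene has another entry, and with those the order is turned round. The other window of Cacnb3, at Cacnb3-201 with 12.23% and 11.22% of its TPM, has 29 CG and a ratio of 0.886. That of Kcnk10 has 7 CG and a ratio of 0.361, and that of Kcnj6 has 9 CG and a ratio of 0.303. The printed Kcnj6 window is at Kcnj6-202, with 0% of its TPM in both libraries, and the other is near Kcnj6-203, with 0% in replicate 1 and 100% in replicate 2. No order between level and CG content can therefore be read from these 3 genes.

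Over all matched genes the CG content is given as a description. With the highest ratio among a gene's entries, 15 of 32 detected channel genes (46.9%) and 25 of 61 not detected (41.0%) had an observed over expected CG ratio of at least 0.6. Over protein-coding genes the shares were 78.4% for detected and 14.6% for not detected. The median ratio was 0.588 in detected and 0.529 in undetected channel genes, and 0.797 and 0.222 in the protein-coding sets. The channel genes not detected here thus had CG-richer promoters, at the median, than all protein-coding genes not detected. Not detected does not mean silent, since the set holds genes such as Scn2a that passed 1 TPM in 1 library. The letters TATAAA were found on either strand in 7.53% of the channel genes and 14.1% of protein-coding genes.

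Many channel genes of neurons are known targets of the repressor REST, whose RE1 element is built of CAGCACC and GGACAG around 2 free bases. With both strands searched and at most 2 mismatches allowed, 3 channel genes held such a run in a promoter window: Kcna5, Kcnip1 and Kcnip3. They are 3 of 93 matched channel genes (3.23%), against 2.45% of protein-coding genes. All 3 were detected, which makes 9.38% of the 32 detected channel genes, against 2.54% of detected protein-coding genes. A gene counted if any of its windows held the run, and genes differ in their number of windows. Kcnip1 and Kcnip3 have several windows each, and only 1 window of each held it. These shares rest on few genes, and an excess was not tested. No match says only that these letters are not in this window. The closest was in Kcna5 with 1 mismatch, on the strand opposite to the gene, where it reads CAGCAGCAAGGACAG. The Kcna5 window (chr6:126535506-126535805, minus strand) is shown for that run, which stands in capitals and is read here from the gene's own strand, so as its reverse complement.
Kcna5: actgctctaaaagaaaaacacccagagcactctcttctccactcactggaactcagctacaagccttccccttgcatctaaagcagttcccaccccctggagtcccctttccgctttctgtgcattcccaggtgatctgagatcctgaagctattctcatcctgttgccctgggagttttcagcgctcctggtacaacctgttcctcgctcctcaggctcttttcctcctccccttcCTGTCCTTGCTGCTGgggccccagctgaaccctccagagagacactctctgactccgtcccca
The run begins 13 bases before the RefSeq start, which itself lies 143 nt from the start of Kcna5-201, and reaches past it. Kcna5, a Kv1 pore known from the atrium and smooth muscle, had 4.30 and 3.15 TPM and was the highest of 17 Kv pore genes.

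**Figure D2:**
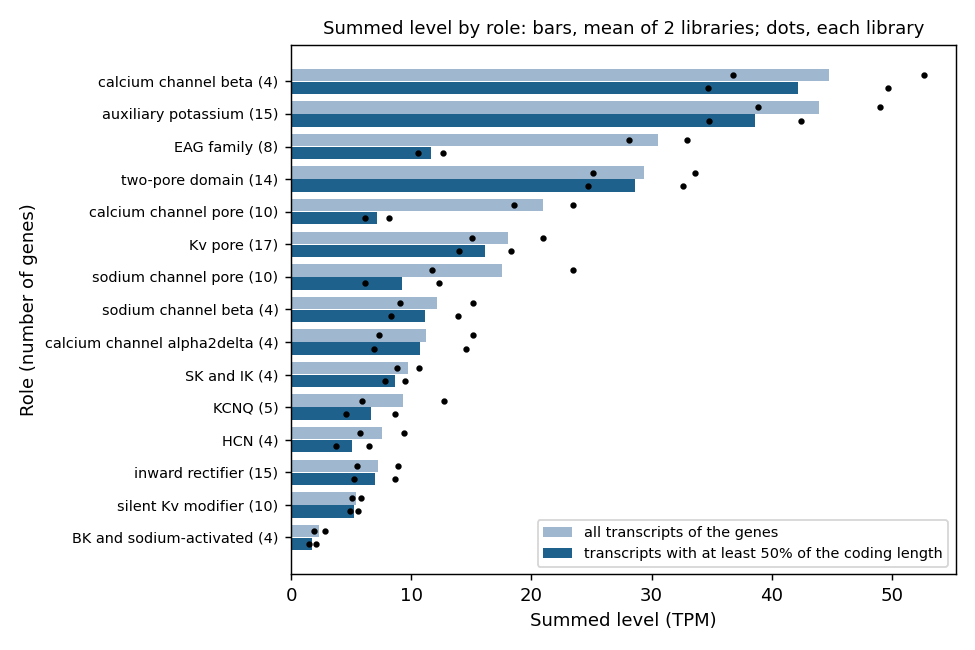
Summed TPM of each role, with the number of genes in parentheses; bars are the mean of the 2 libraries and dots each library, pale for all transcripts and dark for transcripts that hold at least 50% of the gene's longest coding length. The EAG family and the calcium pores lose most of their bar between pale and dark and the sodium pores a large part of it, while calcium beta subunits and K2P channels keep theirs.

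By role, calcium channel beta subunits gave the largest sum, 52.67 TPM in replicate 1 and 36.82 TPM in replicate 2 from 4 genes. Auxiliary potassium channel subunits followed with 49.03 and 38.89 TPM from 15 genes. Both are cytoplasmic or accessory proteins that pass no current themselves. Calcium pores summed to 23.43 and 18.56 TPM over 10 genes. Beta subunits stood 2.25 and 1.98 times as high as this sum (2.12 ± 0.19, SD, n = 2). The sum takes in the low-voltage pores Cacna1g and Cacna1h as well as the high-voltage-activated pores.

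Of the 10 calcium pores 6 were detected. The T-type pore Cacna1g, which opens at low voltage, had 7.77 and 6.92 TPM, and Cacna1h, also T-type, had 3.09 and 1.80 TPM. Among high-voltage pores, Cacna1a (P/Q-type) had 7.73 and 5.89 TPM and Cacna1b (N-type), both known from presynaptic release, had 2.11 and 1.39 TPM. Cacna1c (L-type, known from heart and vessels) had 1.13 and 1.29 TPM and Cacna1e (R-type) 1.25 and 1.09 TPM. Cacna1d, the L-type pore known for pacemaking in adult dopamine neurons, was low at 0.23 and 0.11 TPM. Cacnb1 had 10.52 and 6.62 TPM and Cacnb2 1.39 and 1.49 TPM. Among alpha2delta subunits, extracellular proteins that raise the number of pores at the surface, Cacna2d3 had 7.29 and 3.23 TPM and Cacna2d1 6.38 and 3.15 TPM. Cacna2d3 and Cacna2d1 each had a TPM in replicate 2 less than 50% of that in replicate 1. By scaled counts, the measure used below for differences, Cacna2d3 was 2.13-fold lower and Cacna2d1 1.96-fold, so short of 2-fold.

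Sodium pores were led by Scn3a, the pore known from embryonic brain, with 14.83 TPM in replicate 1 and 4.28 TPM in replicate 2. Scn8a, the main pore of adult axon initial segments, had 4.18 and 4.10 TPM. Scn9a, known from sensory neurons, had 1.43 and 1.02 TPM, and Scn2a 1.75 and 0.90 TPM, so that it missed the detection level in replicate 2. Scn1a, known from adult inhibitory neurons, stood under the detection level with 0.66 and 0.71 TPM. Scn3a, Scn2a, Scn1a and Scn9a lie in 1 cluster on chromosome 2 between positions 65457118 and 66634962, and hold the highest sodium pore, Scn9a as another detected one and 2 not detected. The beta subunits Scn3b (9.81 and 4.59 TPM) and Scn2b (4.71 and 3.55 TPM) were detected. The beta subunit Scn4b (0.13 and 0.24 TPM) was not.

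Among HCN channels, the cation channels opened by hyperpolarisation that drive rhythmic firing, Hcn3 alone was detected, with 8.86 and 5.30 TPM. Hcn4, the pacemaker of the sinus node, had 0.49 and 0.40 TPM. Hcn2, abundant in adult brain, was near 0, with 0.05 and 0.04 TPM from 4 reads in each library. Both were far below Hcn3 in each library.

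K2P channels, which leak potassium at rest, summed to 33.6 and 25.14 TPM, but 4 of 14 genes gave nearly all of it. Beside Kcnk10 these were Kcnk5 (TASK-2, 8.67 and 8.71 TPM), Kcnk1 (TWIK-1, 2.94 and 4.33 TPM) and Kcnk2 (TREK-1, 4.08 and 2.32 TPM). Kcnk9 (TASK-3), an abundant leak channel of adult neurons, had 0.25 and 0.03 TPM from 8 reads and 1 read. As a sum, K2P channels stood 3.76 and 4.58 times as high as the 15 inward rectifiers, which summed to 8.93 and 5.49 TPM. Of the rectifiers only Kcnj8 was detected, with 4.89 and 1.91 TPM. Kcnj8 is the pore of the vascular ATP-sensitive channel and marks pericytes in brain, and its partner subunit Abcc9 had 1.33 and 0.80 TPM. Kcnj2, a classical strong rectifier, had 0.80 and 0.56 TPM.

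Kv pores, the delayed rectifiers and A-type channels, had 5 of 17 genes detected. After Kcna5 came Kcna6 with 4.19 and 2.90 TPM and Kcna3 with 2.70 and 2.90 TPM, all of the Shaker family. Kcna1, a Shaker pore of adult axons, stood at the detection level with 0.85 and 1.08 TPM. Kcnc1, the pore of fast-spiking neurons, had 1.09 and 0.33 TPM, and Kcnd2, an A-type pore, 0.75 and 0.27 TPM. Kcna5, Kcna6 and Kcna1 lie side by side on chromosome 6, between positions 126532551 and 126740674. Of 10 silent Kv modifiers, which form channels only together with Kv2 pores, Kcng1 alone was detected, with 3.54 and 3.78 TPM. Of the Kv2 pores it could join, Kcnb2 had 1.48 and 1.11 TPM.

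KCNQ genes encode slow potassium channels that limit repetitive firing. Kcnq3, a subunit of the neuronal channel, had 0.31 and 0.17 TPM. Kcnq1, known from heart and epithelia, had 0.95 and 0.58 TPM, and Kcnq5 0.55 and 0.34 TPM, so these 3 stayed under the detection level. The large-conductance calcium-activated channel differed widely between its subunits. Its pore Kcnma1 had 0.74 and 0.40 TPM, while Kcnmb4, a beta subunit of that channel known from neurons, had 9.08 and 6.41 TPM.

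Small-conductance calcium-activated channels were detected for 3 of 4 genes. Kcnn1 had 5.69 and 3.65 TPM and Kcnn2 1.96 and 1.86 TPM. Kcnn4, the intermediate-conductance channel known from red blood cells and lymphocytes, had 2.08 and 2.74 TPM. Of the sodium-activated channels Kcnt2 reached the detection level, with 1.29 and 1.00 TPM. Among auxiliary subunits, Kcnip1, a calcium sensor that binds A-type Kv4 pores, had 6.87 and 4.90 TPM, above the Kv4 pores Kcnd1 (0.95 and 0.50 TPM), Kcnd2 and Kcnd3 (1.47 and 1.05 TPM). Kcne3, a single-span partner of Kcnq1, had 2.39 and 4.76 TPM, and was named after its values were seen.

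A gene's TPM adds up all its transcripts, and for several channels a large part came from short or non-coding ones. Of the 44 detected genes 36 had more than 1 transcript. In 30 of these the same transcript led in both libraries, and in 6 it differed. In 7 the leading transcript was annotated as other than protein coding in both libraries: Kcnh2, Cacna1g, Cacna1a, Cacna1c, Cacna1e, Cacnb2 and Kcnn2. In Kcna6 this was so in replicate 1 only. A lead in TPM can rest on few counts. Cacna1g-213, 434 nt long, had 27.71% and 47.46% of its gene's TPM from 3.04% and 5.35% of the counts. Cacnb2-204, in contrast, held 50.57% and 55.13% of the counts of Cacnb2.

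Kcnh2 was the clearest case among the highest genes. Its leading transcript Kcnh2-204, 741 nt long and annotated as a processed transcript without a reading frame, had 64.68% and 73.07% of the gene's TPM. The full-length Kcnh2-201, with 1162 coding residues, had 2.64 and 1.60 TPM. Kcnh2-202, with 820 residues and another start, had 5.23 and 6.24 TPM. Transcripts with at least 50% of the longest coding length, whatever their annotated type, summed to 7.87 and 7.84 TPM, and on that scale Kcnh2 was the 5th of the 128 genes in place of the 2nd.

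In Cacna1a the share was smaller still. Transcripts with at least 50% of the coding length had 0.82 and 0.64 TPM of the gene's 7.73 and 5.89 TPM, and Cacna1a moved from rank 12 to rank 46. Yet its full-length Cacna1a-201, 7926 nt long, held 50.34% and 48.19% of the gene's counts. A short transcript reaches a high TPM from few reads, because each count is divided by length. The same was seen in Scn3a, where a 365 nt fragment, Scn3a-203, had 49.82% and 42.70% of the TPM from 2.95% and 2.20% of the counts. Scn8a-202, 1072 nt long with 102 coding residues, had 56.79% and 62.44% of the TPM of Scn8a from 10.3% and 12.6% of its counts. Full-length Scn3a transcripts, with 1947 residues, still summed to 7.32 and 2.43 TPM, the highest coding level of the sodium pores in both libraries.

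For Cacnb2 the retained-intron transcripts Cacnb2-204 and Cacnb2-207 held most of the counts as well, 50.57% and 28.25% in replicate 1. Its transcripts with at least 50% of the coding length had 0.10 and 0.08 TPM. Hcn3-201, the full-length form of Hcn3, had 66.98% and 61.32%. The remainder of Hcn3 went to 2 different retained-intron transcripts: Hcn3-203 with 32.46% in replicate 1 and Hcn3-202 with 31.34% in replicate 2. In Kcna6 the lead passed from Kcna6-201 with 61.56% in replicate 1, annotated for nonsense-mediated decay, to the coding Kcna6-204 with 68.63% in replicate 2. Those transcripts are 5827 and 5836 nt long and encode the same number of residues, 529.

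**Figure D3:**
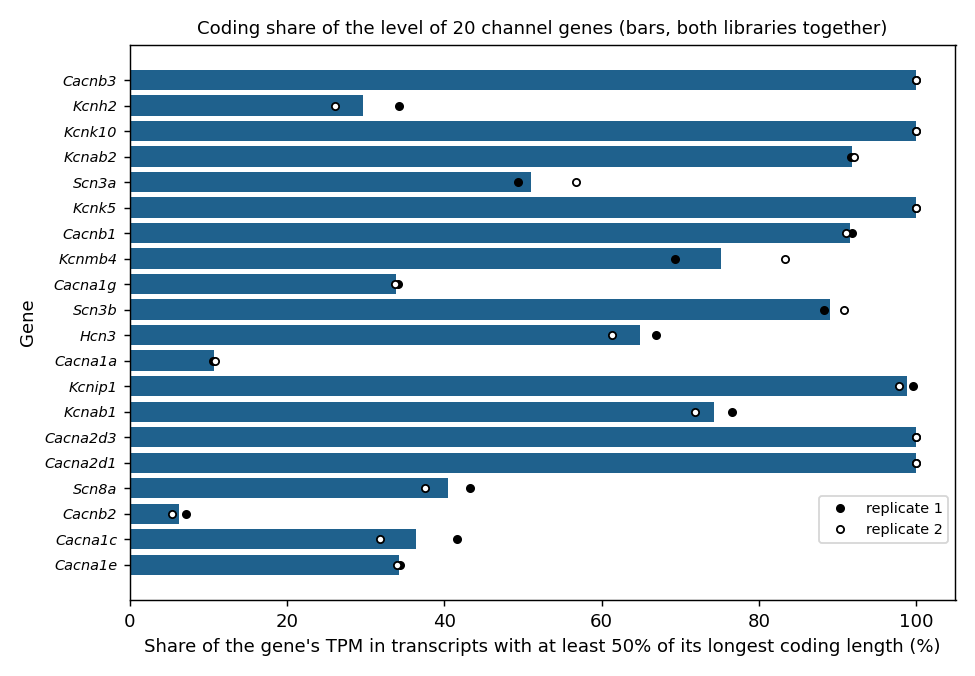
Share of the TPM of 20 channel genes (16 of the highest, with Scn8a, Cacnb2, Cacna1c and Cacna1e) held by transcripts with at least 50% of the gene's longest coding length, in percent; bars take both libraries together and points show each library. Cacnb3, Kcnk10, Kcnk5 and Cacna2d3 reach nearly the whole bar, while Kcnh2, Cacna1g, Cacna1a and Cacnb2 stay far below.

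Over the 44 detected channel genes the median coding share was 90.3%, and 8 genes (18.2%) lay under 50%. Of 12477 detected protein-coding genes, 11.7% lay under 50% and the median was 96.1%. Counting these transcripts alone, 34 of the 128 genes reached 1 TPM in both libraries (26.6%), against 55.9% of protein-coding genes. The 10 that no longer did included 4 of the 6 detected calcium pores, Cacna1a, Cacna1b, Cacna1c and Cacna1e. By counts, long coding transcripts held more of these genes. Cacna1e-203 had 74.27% and 74.08% of the counts of Cacna1e. Cacna1b-204 had 90.69% of those of Cacna1b in replicate 1, and Cacna1b-202 77.22% in replicate 2. In Cacna1c, Cacna1c-207 had 33.88% and 36.21% and Cacna1c-216 31.57% and 37.82%. On the scale of TPM in transcripts with at least 50% of the coding length, the sums of subunits stood in other ratios. Calcium beta subunits stood at 6.11 and 5.68 times the calcium pores, from 49.7 and 34.66 TPM against 8.14 and 6.10 TPM. Sodium beta subunits went from 0.646 and 0.777 times to 1.13 and 1.36 times the sodium pores, from below to above them. K2P channels over inward rectifiers stayed near their gene-level ratio, at 3.76 and 4.73. This scale was chosen after the data were seen, and the annotation of short transcripts was not tested.

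Channel genes were mostly lower in replicate 2. Among the 48 that averaged 1 TPM or more, 37 were lower (77.1%) and 11 higher in replicate 2, by scaled counts. Over all 14768 genes at that level 49.0% were lower. The median log2 ratio, replicate 2 over replicate 1, was -0.40 over the 48 and 0.006 over all genes. The central 50% of the ratios ran from -0.71 to -0.12 in channel genes and from -0.17 to 0.15 in all genes. The 95% counting interval lay below 0 for 31 channel genes and above 0 for 5, and held 0 for 12.

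At least 2-fold lower in replicate 2 were 7 of the 48 (14.6%), where 2.04% of all genes were. None was 2-fold higher, where 1.18% of all genes were. The largest difference was that of Scn3a, from 1952 to 744 counts, a log2 ratio of -1.50 (counting interval -1.63 to -1.38), or 2.84-fold. Its interval lay wholly beyond 2-fold. Kcnj8 followed with 300 and 134 counts and a log2 ratio of -1.27 (-1.58 to -0.98). Scn2a (-1.12), Kcnh4 (-1.12), an EAG-like channel of brain, Cacna2d3 (-1.09) and Scn3b (-1.01) were also past 2-fold. Thus a sodium pore, its close neighbour in the chromosome 2 cluster and a sodium beta subunit were in the set, as was the pericyte channel Kcnj8. The cluster genes Scn9a, at -0.40 (-0.65 to -0.15), and Scn1a, at -0.26 (-0.65 to 0.12) and under 1 TPM, were not past 2-fold. Scn8a, outside that cluster, had 661 and 662 counts and a log2 ratio of -0.11 (-0.27 to 0.05).

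On the higher side, Kcne3 had the largest ratio, 0.91 (0.50 to 1.34), from 73 and 149 counts. Kcnk1 followed with 0.64 (0.38 to 0.91) and Kcnn4 with 0.48 (0.14 to 0.83). Kcng1 was at 0.24 (0.04 to 0.43). Kcnh2 was at 0.21 (0.09 to 0.33), while its transcripts with at least 50% of the coding length had nearly equal TPM in the libraries. Of these, Kcne3 is known from epithelia, Kcnk1 from kidney and glia, and Kcnn4 from red blood cells. With Kcng1 and Kcnh2 they are the 5 genes whose interval lay above 0, and a tissue shared by the 5 was not tested.

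**Figure D4:**
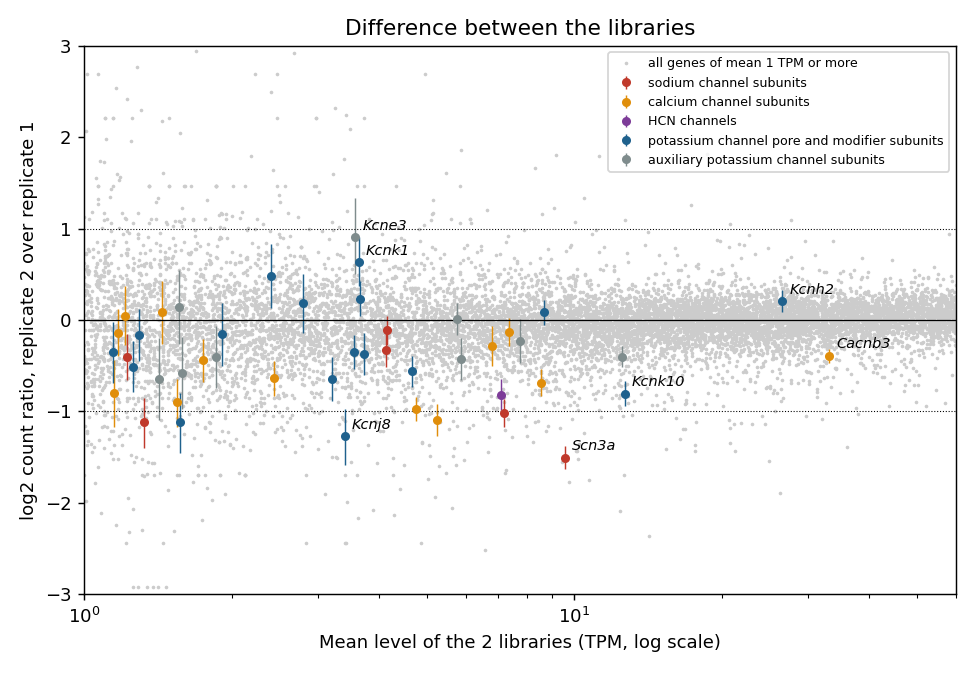
Log2 count ratio of replicate 2 over replicate 1 against the mean TPM (log axis) for 46 of the 48 channel genes, coloured by type with 95% counting intervals, and for all genes in grey; dotted lines mark 2-fold. The axes run from 1 to 60 TPM and to 3 in either direction, and 3063 other genes lie outside them. Most coloured points lie below 0, with Scn3a lowest.

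Several marker lists also differed between the libraries. All 14 neuronal markers were lower in replicate 2, with log2 ratios from -1.09 (Dcx) to -0.25 (Nefm) and a median of -0.68. The progenitor list had 9 of 10 lower and a median of -0.13. Erythroid markers were higher in replicate 2 in 7 of 7, with a median of 0.30, and endothelial markers had a median of 0.06 with 3 of 8 lower. Macrophage markers were lower in 3 of 4 (median -0.38) and head mesenchyme and crest markers in 5 of 8 (-0.31), both near the median of the channel genes. Surface ectoderm markers were higher in 4 of 4 (0.38), muscle markers lower in 1 of 3 (0.30) and cranial ganglion markers lower in 4 of 7 (-0.0078). Of the mural markers, which bear on Kcnj8, 3 of 6 were detected, with sums of 73.85 and 54.32 TPM. Their median log2 ratio was -0.19, with Pdgfrb, an abundant pericyte marker, at 19.39 and 18.35 TPM and Acta2 at 32.1 and 18.19 TPM. The other 3 were under 1 TPM in both libraries and all lower in replicate 2. Rgs5 had 0.68 and 0.25 TPM, Cspg4 0.95 and 0.45 TPM and Myh11 0.16 and 0.02 TPM. Whether the cell makeup of the dissections had a part in the ratios of the channel genes was not tested.

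The 37 partner genes of these channels outside the family had a like ratio. They comprise anchoring proteins, intracellular modulators, further subunits and the sodium leak channel. Of these, 15 were detected. The anchors Ank3 (37.81 and 29.02 TPM) and Ank2 (36.45 and 24.42 TPM), which hold sodium and other channels at the membrane, stood near the level of Cacnb3. Cntnap2, which clusters Kv1 channels at axons, had 25.93 and 19.29 TPM, and Fgf13, an intracellular modulator of sodium pores, 24.46 and 19.37 TPM. Rem2, a small GTPase that inhibits calcium channels, had 25.18 and 15.78 TPM. These 5 partners stood above every sodium pore in both libraries. Dpp6, a partner of Kv4 pores, had 8.65 and 5.53 TPM, and Nalcn, the sodium leak pore, 2.18 and 1.37 TPM. All 19 partners that averaged 1 TPM or more were lower in replicate 2, with a median log2 ratio of -0.51. At least 2-fold lower was 1 of them, Kcnrg, a suppressor of Kv1 channels, at -1.32.

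Some levels may hold reads of a neighbour. An exon of 38 channel genes overlaps an exon of another gene in the M21 annotation, 36 of them on the opposite strand, and whether reads were assigned by strand is not given in the sources used here. Hcn3 shares 711 nt with Pklr, the red-cell pyruvate kinase, which had 3.49 and 5.04 TPM. Kcnip4 shares 168 nt with 5730480H06Rik, which at 17.97 and 19.41 TPM stood above it (1.77 and 1.07 TPM). Kcnmb4 shares 693 nt with Kcnmb4os2 (1.63 and 0.98 TPM), and Cacna1a 435 nt with Gm16183 (1.06 and 0.69 TPM). Reads of such pairs cannot be told apart here.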

How the data were processed

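Per the labels, total RNA-seq was made from 10 ng of RNA of E10.5 midbrain in 2 libraries, with 69 and 51 embryos pooled. Which aligner and quantifier were used is not given in the sources used here. Per the file headers, the tables are on mm10 with annotation M4. The deposited expected counts are estimated counts that share reads among transcripts. The deposited TPM, with its posterior mean, and the deposited FPKM scale those counts for length and depth. The deposited credible bounds of TPM are a signal in TPM units and were only read for precision. The deposited isoform percent is a transcript's share of its gene's TPM.

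Names, positions, biotypes and coding lengths came from the M21 release of GENCODE, whose GRCm38 is the mm10 assembly (42462 of 43346 gene identifiers matched, all 128 channel genes among them). The expected counts, rounded to whole numbers, were scaled with TMM factors (edgeR 4.0.16, R 4.3.3), and log2 ratios had 0.5 added to each count, with exact Clopper-Pearson intervals (95%). A gene was detected at 1 TPM in both libraries, and differences were counted past 2-fold among genes that averaged 1 TPM or more. DESeq2 1.42.0 size factors were an alternative. The ratio and its interval were tested on simulated data. Spike-in and tRNA rows were left out of the scaling.

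Genes, roles, markers and partner lists were chosen with earlier results of these data known. Named are up to 3 detected genes per role by mean TPM, all that averaged 10 TPM or more, up to 10 per direction past 2-fold, a preset list of well-known channels, and isoforms of up to 12 of the highest genes and 4 others. Genes named in lists of exceptions or with overlaps were chosen after their values were seen. Protein sequences were not used here, and values of some channel genes are not reported here.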

Additional observations from a re-analysis of the deposited data

How the results depend on the processing

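Of 31 alternative values for 5 results, 23 stayed within 1.5 times the count, within 0.1 of the median log2 ratio or within 1 SD (58.9 TPM) of the mean sum, and no direction reversed. Of 44 detected genes 28 were left at a minimum of 2 TPM, while the other settings gave 32 (FPKM) to 60 (minimum of 0.5 TPM), and single libraries 45 and 51. Counts of genes at least 2-fold lower in replicate 2 depended on the limits: 7 became 4 at a mean of 5 TPM or more, 24 with no filter, 16 at 1.5-fold and 0 at 3-fold. Genes 2-fold higher went from 0 to 6 with no filter, all under 25 counts in either library, and to 2 at 1.5-fold. The median log2 ratio ran from -0.47 to -0.39 over its alternatives. The mean sum of 270.2 TPM was 170.6 as FPKM, a constant rescaling within each library, and 228.5 and 311.8 in the single libraries. Each of 2 values always lies within 1 SD of their mean. These single-library sums, counted among the 23, were therefore bound to stay and show no stability. The settings on coding length were chosen after seeing the data. No paired analysis was possible because there is 1 group of 2 libraries. At levels under 1 TPM some channel genes rest on few reads (Hcn2 on 4 in each library) and others on more (Kcnd1 on 144 and 87). Where reads are few, any statement about a gene is limited to a rough level.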
